A study of Mus musculus with 12 samples.

Results

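The organic anion transporters described here are 4 genes of the Slco family, Slco2a1, Slco2b1, Slco3a1 and Slco4a1. They were measured with every array probe whose RefSeq transcript accession belongs to 1 of these genes, which gave 6 of the 39429 probes on the array, or 4 of 20659 genes with a symbol. Slco2b1 and Slco3a1 had 2 probes each and the others 1. The 4 genes were selected on their signal and their detection above background over these same 12 arrays. Their levels and differences are therefore given as a description, with the standard error of the model fitted to all probes. Where a probe of these genes is said to have been called, this says on which side of the thresholds used for all probes it lay and is no independent test.

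Total RNA of microglia, macrophages that reside in the brain, grown in culture from mice, was labelled with a single dye, Cy3, and read on Agilent whole-genome arrays. The cells came from mixed glial cultures of newborn C57BL/6 mouse brain and were harvested by shaking the flasks. The study describes them as highly pure, judged by CD11b in flow cytometry. The 3 groups of 4 arrays were cells given T cell medium (IMDM in the titles, called untreated in the labels), cells given supernatant of Th1 cultures, and cells given supernatant of Th17 cultures. Th1 and Th17 cells are helper T cells known for interferon-gamma and interleukin-17, respectively. Each group held 1 array from each of experiments 12, 13, 14 and 16, and an array is named by its group and experiment, as in Th17 13. No genotype differed between the groups, and all of them shared the same strain. The labels give no treatment time for these cells, and the time in the study's methods is worded for astrocyte cultures.

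Slco genes encode OATPs, membrane carriers that move organic anions such as prostaglandins, sulfated steroids, thyroid hormones, bile acids and many drugs across the plasma membrane without direct use of ATP. Several of them accept overlapping substrates, and they are best known from liver, kidney, choroid plexus and the blood-brain barrier. What enters through them is broken down inside the cell, bound by nuclear receptors, or exported again by ABC pumps, and genes of those steps are described after the carriers.

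The promoter of Slco2b1 is shown because Slco2b1 had the largest deficit of the 4 genes in the Th1 group. A RefSeq promoter table of build GRCm38.p6 held 3 starts for Slco2b1, 2 for Slco4a1 and 1 for Slco2a1, and Slco3a1 had none in the table. The 250 bases before the outermost and the innermost of the 3 Slco2b1 starts, which lie on the minus strand at chr7:99711341-99711590 and chr7:99695810-99696059, read 5′ to 3′ as follows. Capitals mark a match to the GAS motif, the gamma-activated sequence bound by STAT dimers.
Slco2b1 outermost start: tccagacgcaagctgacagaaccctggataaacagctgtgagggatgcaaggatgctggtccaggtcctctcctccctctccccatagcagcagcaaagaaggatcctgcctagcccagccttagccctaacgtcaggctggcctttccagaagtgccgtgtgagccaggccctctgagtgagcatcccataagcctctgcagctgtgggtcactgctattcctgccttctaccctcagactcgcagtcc
Slco2b1 innermost start: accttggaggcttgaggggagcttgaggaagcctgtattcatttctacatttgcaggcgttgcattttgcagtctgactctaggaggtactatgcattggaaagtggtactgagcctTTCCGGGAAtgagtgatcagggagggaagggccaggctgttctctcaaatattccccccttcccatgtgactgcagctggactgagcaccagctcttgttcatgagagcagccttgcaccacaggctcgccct
The match lay 133 to 125 bases before the innermost start and was the single match to GAS (letters TTCNNNGAA) in the 6 promoters of these genes. GAS reads the same on both strands, and 7.02% of all 32851 promoters of the table held it in the same window. Neither the core of the interferon-stimulated response element (GAAA, 2 free bases and GAAA again, found on either strand in 2.98% of promoters) nor a PU.1 site (letters GAGGAAGT, 2.44%) matched in these 6 windows. A match is a description of letters and was not tested for binding.

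Slides held 4 arrays each and were filled in the order of the experiments, with all arrays of experiment 12 on slide 1, all of experiment 16 on slide 3 and those of experiments 13 and 14 split between slides, so slide and experiment largely coincide. Between 21486 and 25623 probes per array were well above background (54.49% to 64.99%), and no spot was saturated. Values are log2 of the normalised signal, which was scaled so that the 75th percentile of an array was 1500. Signals under 15 were set to 15, which is 3.91 on the log2 scale and is called the floor. Of the 39429 probes, 24287 were well above background on at least 4 arrays and were kept, among them all 6 probes of the 4 genes. A probe was called where its adjusted p was under 0.01 and its difference exceeded 2-fold. All 10 microglia markers on the list were well above background on every array, with a mean log2 signal of 14.03 to 14.53 in the Th1 group, 14.91 to 15.47 in the untreated group and 14.94 to 15.48 in the Th17 group. Between Th1 and untreated cells their median difference was -0.24, with Cx3cr1 the largest at -6.32. Of the 10, 2 were called higher and 3 lower. In RNA from whole cultures, fewer cells of a type and less RNA per cell cannot be told apart.

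In the Th1 group, 4 of the 6 probes were called against untreated cells: both probes of Slco3a1 were higher and both probes of Slco2b1 were lower. Over all kept probes, 15.5% were called in this comparison (7.56% higher and 7.97% lower), and nothing is read from the count, since these genes were chosen with the comparison in view. Slco4a1 was lower after Th1 supernatant in each of the 4 experiments but varied so much between experiments that it was not called in this model, which leaves the pairing by experiment out. With experiment as a replicate block it was past the thresholds too, which makes 5 of the 6 probes. The shares over all kept probes given here come from the model without the block and do not belong beside this count. Slco2a1 stayed near background on all arrays. No probe of the 4 genes was called between Th17 supernatant and untreated cells, where 0% of all kept probes were. Between Th1 and Th17 cells the same 4 probes were called, in the same directions as against untreated cells, and over all kept probes 14.9% were called (7.01% higher and 7.93% lower). The same 4 probes did not overlap between Th1 and untreated arrays, as 19% of probes higher and 21.9% lower did not, nor between Th1 and Th17 arrays, where these shares were 18.9% and 22.4%. None of the 6 was without overlap between Th17 and untreated arrays, where 0.545% of probes were higher and 0.417% lower without overlap. These counts are descriptions too.

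**Figure D1:**
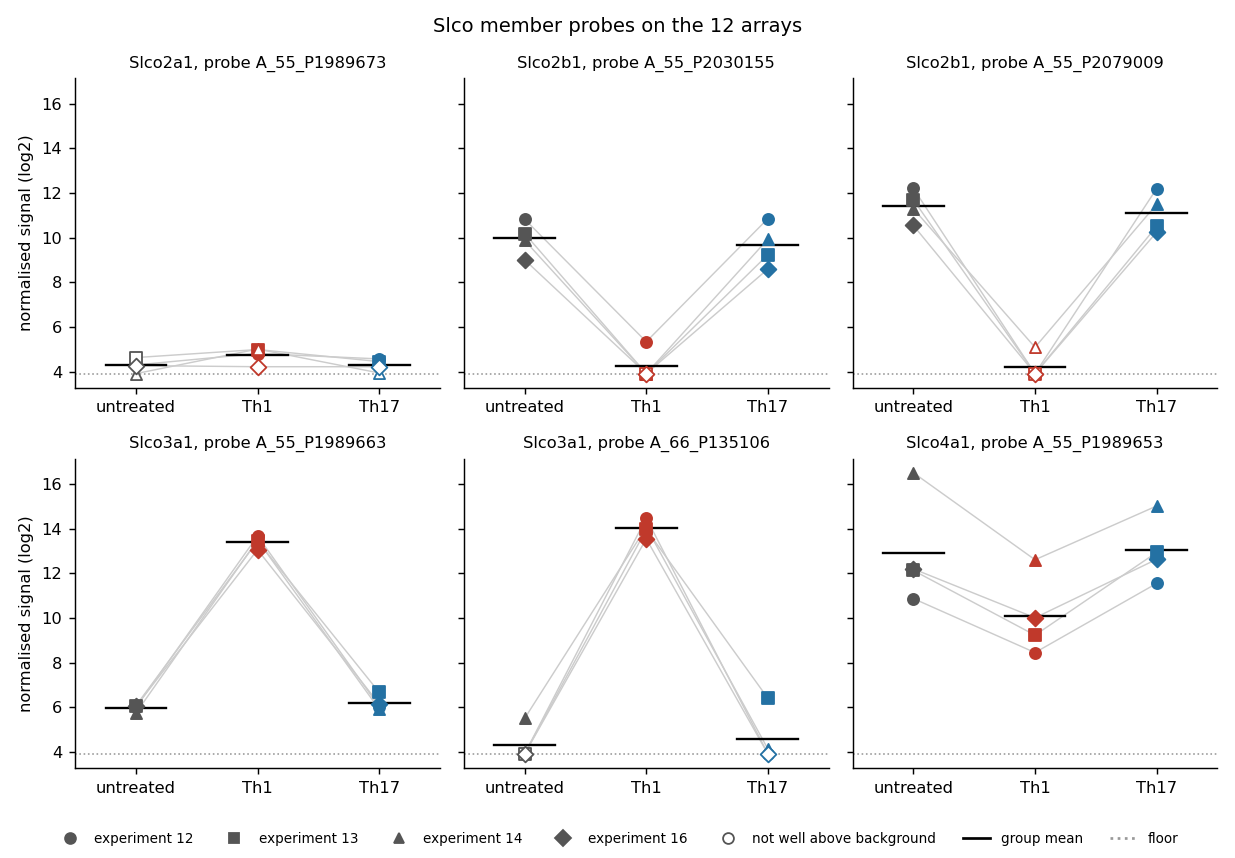
Normalised log2 signal (y axis) of the 6 probes on the 12 arrays, by group (x axis); marker shapes are experiments, thin lines join the arrays of 1 experiment, open markers are spots not well above background, black bars are group means and the dotted line is the floor. Slco3a1 lies at 13.06 to 14.48 in the Th1 group against 3.91 to 6.67 elsewhere, Slco2b1 lies at 3.91 to 5.34 in the Th1 group against 8.60 to 12.21 elsewhere, and experiment 14 (triangles) stands highest for Slco4a1 in every group.

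Slco3a1 encodes OATP3A1, a widely expressed carrier of prostaglandins and thyroxine. Its probe A_55_P1989663, matched to transcript NM_023908, was well above background on all 12 arrays. In untreated cells its log2 signal was 5.99, 6.07, 5.74 and 6.04 in experiments 12, 13, 14 and 16. After Th1 supernatant it was 13.68, 13.45, 13.49 and 13.06 in the same order, and after Th17 supernatant 6.03, 6.67, 5.91 and 6.15. Every Th1 array stood far above the 8 others, and the untreated and Th17 arrays overlapped. The difference between Th1 and untreated means was 7.46 ± 0.18 on the log2 scale (SE, n = 4 arrays per group), or 176-fold, and the difference within an experiment was 7.68, 7.37, 7.75 and 7.02. Against the Th17 group it was 7.23 ± 0.18. The Th17 mean exceeded the untreated mean by 0.23 ± 0.18. By mean signal the order was Th1 (13.42 ± 0.26 SD), Th17 (6.19 ± 0.33) and untreated (5.96 ± 0.15), with the last pair within their spread.

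The second Slco3a1 probe, A_66_P135106, matched another transcript of the gene, NM_001038643. Its log2 signal in the Th1 group was 14.48, 13.97, 14.07 and 13.55, with all 4 arrays well above background. In untreated cells it was at the floor of 3.91 in experiments 12, 13 and 16 and at 5.50 in experiment 14. In the Th17 group it was at the floor in experiments 12 and 16, at 4.13 in experiment 14 and at 6.40 in experiment 13. It was thus well above background on 1 untreated array and 1 Th17 array, and its differences of 9.71 ± 0.55 from untreated and 9.43 ± 0.55 from Th17 on the log2 scale depend on where the floor lies. With a floor of 50 in place of 15 the first became 8.37. The probe passed the filter on dim probes only through its 4 Th1 arrays, since 2 other arrays were well above background, and so it adds no independent support to the first probe. The 2 probes were not compared in level, since probes differ in how brightly they bind.

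Both Slco3a1 probes were highest in the Th17 group on array Th17 13, at 0.60 and 2.49 log2 above untreated 13. On that array 14 interferon-gamma response genes also had their highest mean log2 signal among the Th17 and untreated arrays, 11.58 against 8.95 to 10.34 on the other 7 arrays, while the Th1 arrays lay at 15.28 to 15.34. Th17 13 also had the highest 75th percentile of unscaled signal of the 12 arrays, 2214.5 against 1199.6 to 1628.3. The part of these differences in the Slco3a1 values was not tested.

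Slco2b1 encodes OATP2B1, a carrier of sulfated steroids, bromosulfophthalein and several drugs. Both of its probes matched the same transcript, NM_001252530. Probe A_55_P2079009 read 12.21, 11.70, 11.30 and 10.55 log2 in untreated cells of experiments 12, 13, 14 and 16, and 12.20, 10.51, 11.50 and 10.25 after Th17 supernatant. After Th1 supernatant it was at the floor of 3.91 in experiments 12, 13 and 16 and at 5.09 in experiment 14, and on none of these 4 arrays was it well above background. Every Th1 array stood below the 8 others. The signal in the Th1 group was at least 121-fold lower than in untreated cells and at least 96.3-fold lower than after Th17 supernatant. For these bounds the brighter group's mean was set against the lowest signal that counted as well above background on each Th1 array, or the measured signal where that was higher. That lowest signal is no strict detection limit, since the 5.09 of this probe on Th1 14 was not well above background. The bounds hold for the floor of 15 and this normalisation. Settings that raise dim signals gave smaller differences (-5.80 log2 from untreated with a floor of 50 and -4.60 with normexp background). The measured means differed by -7.24 ± 0.47 and -6.91 ± 0.47 on the log2 scale.

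The second Slco2b1 probe, A_55_P2030155, gave the same order at lower signal. It read 10.83, 10.19, 9.88 and 9.01 log2 in untreated cells, 10.86, 9.24, 9.94 and 8.60 after Th17 supernatant, and 5.34, 3.91, 3.91 and 3.91 after Th1 supernatant. Within the Th1 group it was well above background on Th1 12 alone. Its Th1 mean lay -5.72 ± 0.52 from the untreated mean and -5.39 ± 0.52 from the Th17 mean on the log2 scale, and the 4 differences from untreated within experiments were -5.50, -6.29, -5.98 and -5.11. For the brighter probe those were -8.30, -7.80, -6.21 and -6.64.

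Between Th17 supernatant and untreated cells the Slco2b1 groups overlapped at both probes. The Th17 mean differed by -0.32 ± 0.47 at the brighter probe and by -0.32 ± 0.52 at the other. Within experiments, Th17 13 lay 1.19 log2 below untreated 13 at the brighter probe (-1.19) and 0.96 below at the other (-0.96), and the 3 other experiments differed by -0.41 to 0.20. Experiment 12 gave the highest and experiment 16 the lowest untreated and Th17 signal at both probes. These levels spread over 1.66 log2 in untreated cells and 1.95 after Th17 supernatant at the brighter probe, a range wider than that of 94.1% and 97.1% of kept probes.

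**Figure D2:**
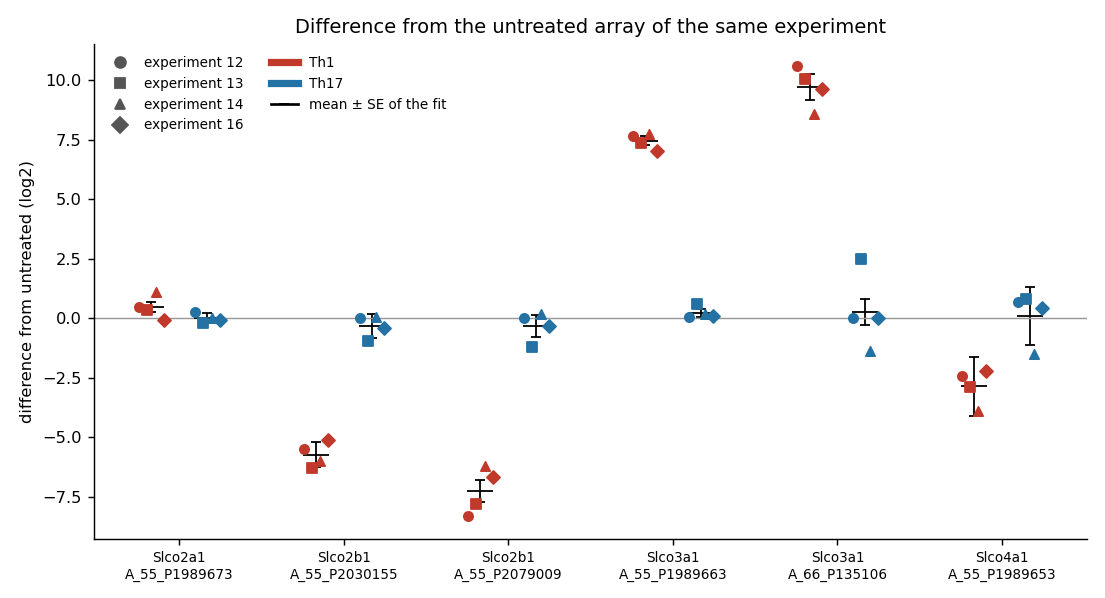
Log2 difference of each Th1 array (red) and each Th17 array (blue) from the untreated array of the same experiment (y axis) for the 6 probes (x axis); marker shapes are experiments, and the black bar and whiskers are the difference of group means with the SE of the model. The Th1 differences lie at 7.02 to 10.58 for Slco3a1, at -8.30 to -5.11 for Slco2b1 and at -3.90 to -2.19 for Slco4a1.

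Slco4a1 encodes OATP4A1, a carrier of thyroid hormones and prostaglandins. Its probe A_55_P1989653, matched to NM_148933, was well above background on all 12 arrays. In experiments 12, 13, 14 and 16 its log2 signal was 10.87, 12.13, 16.51 and 12.20 in untreated cells and 8.45, 9.23, 12.61 and 10.01 after Th1 supernatant. After Th17 supernatant it was 11.55, 12.94, 15.02 and 12.63. Each Th1 array stood below the untreated array of its own experiment, by -2.42, -2.90, -3.90 and -2.19 log2, and below the Th17 array, by -3.09, -3.71, -2.41 and -2.61. The groups overlapped nonetheless, since Th1 14 was above untreated 12, 13 and 16.

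The Slco4a1 means differed by -2.85 ± 1.23 between Th1 and untreated cells and by -2.96 ± 1.23 between Th1 and Th17 cells, and neither was called. With the experiment number as a replicate block the differences were the same with an SE of 0.36, and both were called. Without the 3 arrays of experiment 14, an alternative chosen after the values were seen, they were -2.50 ± 0.53 and -3.14 ± 0.53, and both were called. Leaving out untreated 14 alone changed the first to -1.66, still not called. The Th17 mean exceeded the untreated mean by 0.11 ± 1.23, with differences of 0.68, 0.81, -1.49 and 0.43 within experiments. In order of mean signal the groups were Th17 (13.03 ± 1.45 SD), untreated (12.93 ± 2.47) and Th1 (10.08 ± 1.80), and neighbours in that order did not differ beyond their spread. With the experiment taken into account, untreated and Th1 cells did, and Th17 and untreated cells still did not.

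The Slco4a1 signal was highest in experiment 14 in every group. There it exceeded that of the next highest experiment by 4.31 log2 in untreated cells, 2.59 after Th1 supernatant and 2.08 after Th17 supernatant. The range of Slco4a1 over experiments in those groups was wider than that of 100%, 99.9% and 99.5% of kept probes, to the digits given. Of 24207 kept probes with a value on all arrays, 1447 (5.98%) were highest in experiment 14 in all 3 groups. Only 8 probes (0.033%) were so by over 2 log2 in each group, a threshold chosen after the Slco4a1 values were seen. The named genes among them were Slc6a12 (a betaine and GABA transporter), Fxyd2 (a regulatory subunit of the sodium pump), Ndrg2, Il1b (interleukin-1 beta), Tal2, Slco4a1 and Tm4sf1, with a smallest gap over the groups of 6.29 for Slc6a12, 2.84 for Fxyd2 and Ndrg2 and 2.35 for Il1b.

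Markers of astrocytes, another cell type of the mixed cultures, also stood higher in experiment 14. Of 10 listed markers 7 were kept, and their mean log2 signal in experiment 14 was 8.69 in untreated cells, 8.15 after Th1 supernatant and 8.31 after Th17 supernatant, against 7.18 to 7.88 on the 9 other arrays. The defining markers Slc1a2, Gja1 and Sox9 were not kept. The 19 kept genes of a prostanoid list, described below, were also highest in experiment 14 within each group, by smaller margins. Their mean log2 signals there were 11.03 (untreated), 10.92 (Th1) and 10.86 (Th17). On the other arrays that list lay at 10.31 to 10.78. The part of these differences in the Slco4a1 values was not tested.

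Slco2a1 encodes the prostaglandin transporter, which takes up prostaglandins for breakdown. Probe A_55_P1989673, matched to NM_033314, read 4.30, 4.63, 3.91 and 4.27 log2 in untreated cells, 4.81, 4.99, 5.01 and 4.22 after Th1 supernatant, and 4.57, 4.45, 3.94 and 4.22 after Th17 supernatant. It was well above background on 5 of the 12 arrays, all of them from experiments 12 and 13. The groups overlapped, and the Th1 mean lay 0.48 ± 0.21 above untreated and 0.46 ± 0.21 above Th17, while the Th17 mean lay 0.01 ± 0.21 above untreated. The floor of 3.91 leaves little room below these values for a lower level to be measured.

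The array carried 11 probes for 10 other Slco genes. Of these probes 7 were well above background on no array. Slco1a1 was well above background on all 12 arrays, at 6.09 to 6.57 log2, and its Th1 difference of 0.28 ± 0.09 was not called (limma, adjusted p = 0.0226). One Slco1c1 probe, for the carrier of thyroxine at the blood-brain barrier, was well above background on 5 arrays at 4.27 to 5.62 over all 12, and the other probe of the gene on none. Slco1a4 passed that mark on 2 arrays and Slco1b2 on 1. Slco1a7, Slco1a8 and Slco6b1 had no probe matched here. Neither of the 2 kept genes of this list was called in any comparison.

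The genes that share substrates with these carriers were taken from lists chosen with earlier results of these arrays known. Each gene was represented by its brightest kept probe. Some genes, Hpgd and Sult1a1 among them, had a further kept probe, whose values are not given here. P-values are Benjamini-Hochberg adjusted limma values over all kept probes and measure the spread between 4 arrays per group, 1 from each of 4 experiments. Over all 19802 genes, 7.51% were called higher and 7.88% lower between Th1 and untreated cells, and the median difference was -0.058 on the log2 scale. Between Th1 and Th17 cells 6.87% were called higher and 7.9% lower. Between Th17 and untreated cells no gene of any list was called. There 378 of all kept probes (1.56%) had an unadjusted p under 0.05, and the smallest adjusted p was 0.737. This model leaves the pairing by experiment out, so its spread includes the differences between experiments. The Th1 comparisons with untreated and with Th17 cells share the Th1 arrays, so their values are given side by side.

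Prostanoids are substrates of Slco2a1, Slco3a1 and Slco4a1. Of 24 genes of their synthesis, breakdown, export and reception 19 were kept, and 4 rose and 2 fell after Th1 supernatant, with a median difference of 0.24. Ptgs2, the inducible cyclooxygenase, rose by 6.14 ± 1.07 log2 (adjusted p = 0.000704) and Pla2g4a, the phospholipase that releases arachidonic acid, by 1.95 ± 0.26 (adjusted p = 0.000112). Ptger2 (1.22 ± 0.22), a receptor of prostaglandin E2, and Ptgdr2 (1.1 ± 0.24), a receptor of prostaglandin D2, were the other 2. The last was well above background on 3 Th1 arrays, 1 untreated array and 1 Th17 array. It passed the filter on dim probes only through its Th1 arrays, so its call is given as a description. Ptgdr2 was not called without Th1 12 (0.88), untreated 12 (1.07) or untreated 13 (1.03), among other settings. Hpgd, the dehydrogenase that inactivates prostaglandins after uptake, fell by 6.83 ± 0.68 (adjusted p = 1.23e-05), and Hpgds, the haematopoietic prostaglandin D synthase, by 1.16 ± 0.14 (adjusted p = 4.06e-05). Abcc4, a pump that exports prostaglandins, had a difference of -0.71 ± 0.26 and was not called (adjusted p = 0.0438). Against Th17 cells the difference was 6.53 ± 1.07 for Ptgs2 and -6.20 ± 0.68 for Hpgd (adjusted p = 0.000495 and 2.92e-05), and 3 genes of the list were higher and 2 lower.

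Sulfated steroids are substrates of Slco2b1. Of 17 genes of steroid sulfate handling and steroid reception with a probe 14 were kept, and 2 rose and 2 fell after Th1 supernatant, with a median difference of -0.36. Hsd17b4, a peroxisomal enzyme of fatty acid and steroid breakdown, was at -0.95 ± 0.20 (adjusted p = 0.00217), just under 2-fold, and was called lower with slide as a block (-1.05) and without untreated 12 (-1.03), Th1 13 (-1.01), untreated 16 (-1.02) or Th1 16 (-1.04). Papss2, which makes the sulfate donor PAPS, rose by 2.90 ± 0.33 log2 (adjusted p = 3.43e-05). Esr1, the oestrogen receptor alpha, was well above background on no untreated array and on all 4 Th1 arrays, and was at least 7.68-fold higher after Th1 supernatant. It passed the filter on dim probes only through its 4 Th1 arrays, since 2 Th17 arrays were the only others well above background. Its call is therefore given as a description, without a p-value. Sult1a1, a phenol sulfotransferase, was well above background on all untreated arrays and on no Th1 array, at least 29.1-fold lower (adjusted p = 6.62e-07). The bounds of Esr1 and Sult1a1 were made as for Slco2b1 and likewise rest on no strict detection limit. Sulf2, which removes sulfate from heparan chains and does not act on steroids, fell by 3.21 ± 0.24 (adjusted p = 1.32e-06). The same 4 genes were called against Th17 cells.

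Of 17 genes for the transport, conversion and reception of thyroid hormones 11 were kept, and none was called in any comparison. Their median difference between Th1 and untreated cells was 0.01. The deiodinases Dio2 and Dio3 and the receptor Thrb were not kept. The largest differences in this list that were not called were those of the retinoid X receptor Rxrb (-0.82 ± 0.13, adjusted p = 0.000382) and the amino acid carrier Slc7a5 (0.76 ± 0.16, adjusted p = 0.0023), both under 2-fold.

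Efflux of organic anions is the work of ABC pumps. Of 12 listed pumps 8 were kept, and after Th1 supernatant 4 fell and none rose in the fit over all arrays, with a median difference of -0.94. Abcc5, an exporter of cyclic nucleotides, was at 0.84 ± 0.24 (adjusted p = 0.0137) and was called higher without untreated 14 (1.08, adjusted p = 0.00107) and without experiment 14 (1.11, adjusted p = 0.00222). Abcb4, a phospholipid floppase, fell by 3.21 ± 0.26 log2 (adjusted p = 2.96e-06). Abcc3 (MRP3), an exporter of conjugated organic anions, fell by 1.81 ± 0.27 (adjusted p = 0.000263). Abcc1 (-1.60 ± 0.30), another exporter of conjugates, and the drug pump Abcb1b (-1.05 ± 0.16) were also called. Abcb1b lay near the 2-fold threshold, fell under it without Th1 12 (-0.91) or untreated 14 (-0.97), was at -1 and not called without untreated 13, and was not called against Th17 cells, where 3 pumps fell. Abcg2, with a difference of -0.84 ± 0.17 (adjusted p = 0.00213), was under 2-fold.

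Of 25 other carriers of organic anions, bile acids and monocarboxylates 15 were kept, and 1 of them was called after Th1 supernatant, with a median difference of -0.26. Slc22a4, the ergothioneine transporter, fell by 2.29 ± 0.41 log2 (adjusted p = 0.000926) and lay 2.07 below its level in Th17 cells (-2.07 ± 0.41, adjusted p = 0.00189). Without untreated 14, Slc22a18 was called as well (-1.33), and without Th17 13 or Th17 14 Slc22a23 was (-1.83 in both). With the replicate block 3 genes of this list were called, Slc22a18 (-1.05, adjusted p = 0.000742) and Slc22a23 (-1.83, adjusted p = 0.00235) in addition. The shares over all genes given above are those of the fit without the block.

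**Figure D3:**
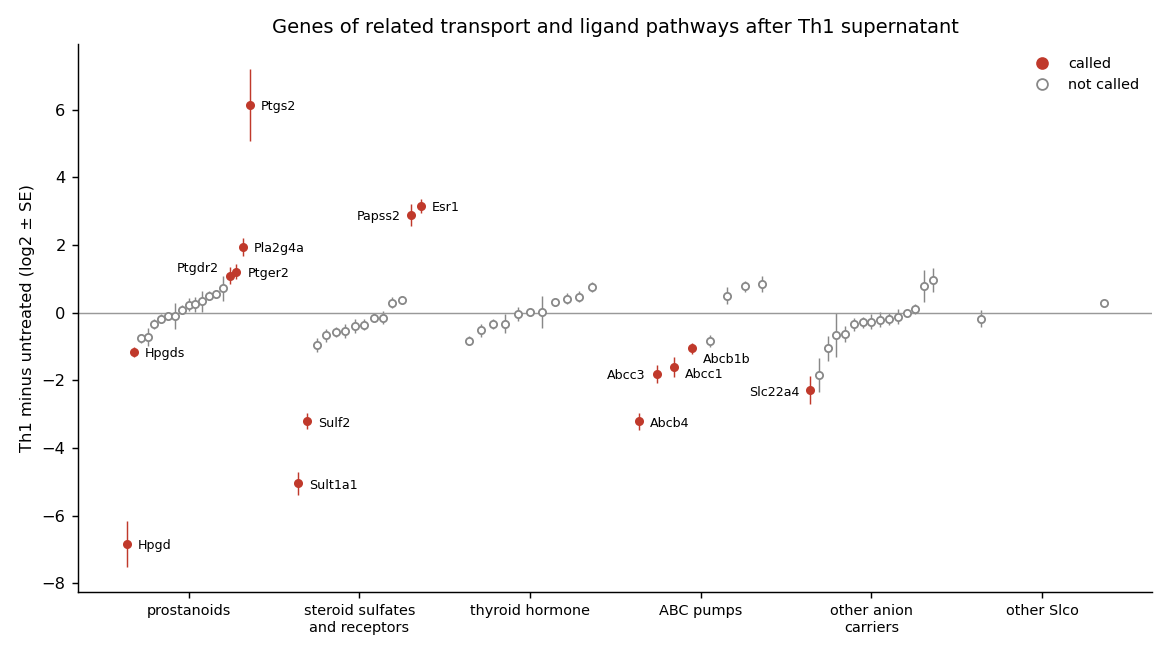
Log2 difference between Th1 and untreated cells with its SE (y axis) for the kept genes of 6 lists (x axis), ordered by size within a list; filled points were called. Calls run from -6.83 (Hpgd) to 6.14 (Ptgs2), the ABC pumps hold 4 called genes, all lower in this fit over all arrays (without untreated 14, Abcc5 was called higher and Abcb1b was not called), and the thyroid hormone list holds none. Points of Esr1 and Sult1a1 rest on a group that was not well above background.

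The genes nearest to each carrier were found by the root mean square difference of log2 signal over the 12 arrays, after each profile was centred on its untreated mean. All 12 arrays share the 3 groups, so a gene that changed by the same amount after Th1 supernatant lies near. Nearest to Slco3a1 were F830016B08Rik at 0.27, Iigp1 (an interferon-inducible GTPase) at 0.38, Clic5 at 0.39 and Batf2 (a leucine zipper transcription factor) at 0.43, against a median of 4.35 over 13149 genes. Nearest to Slco2b1 were Gpr183 (the oxysterol receptor EBI2) at 0.67, Cmbl at 0.76, Hpgd at 0.85 and Asb10 at 0.97, against a median of 4.21. The Slco2b1 profile is at the floor on 3 of the 4 Th1 arrays, so these distances and their order depend on where the floor lies. In the Slco3a1 set, Clic5 had 1 shared value on all untreated and Th17 arrays, and F830016B08Rik on most of them, as values at the floor do. The distances of these genes from Slco3a1 therefore depend on the floor too.

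Among the nearest to Slco4a1 were Ndrg2 at 0.83, Tal2 at 0.94 and Slc5a3 (a sodium-coupled inositol transporter) at 1.08, against a median of 2.36. Like Slco4a1, these genes were highest in experiment 14 in each group. For Slco2a1, whose own values hardly left the background, the nearest were Arl6, Rnpc3, Ccnc and Taok3 at 0.14 to 0.17, against a median of 0.53.

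**Figure D4:**
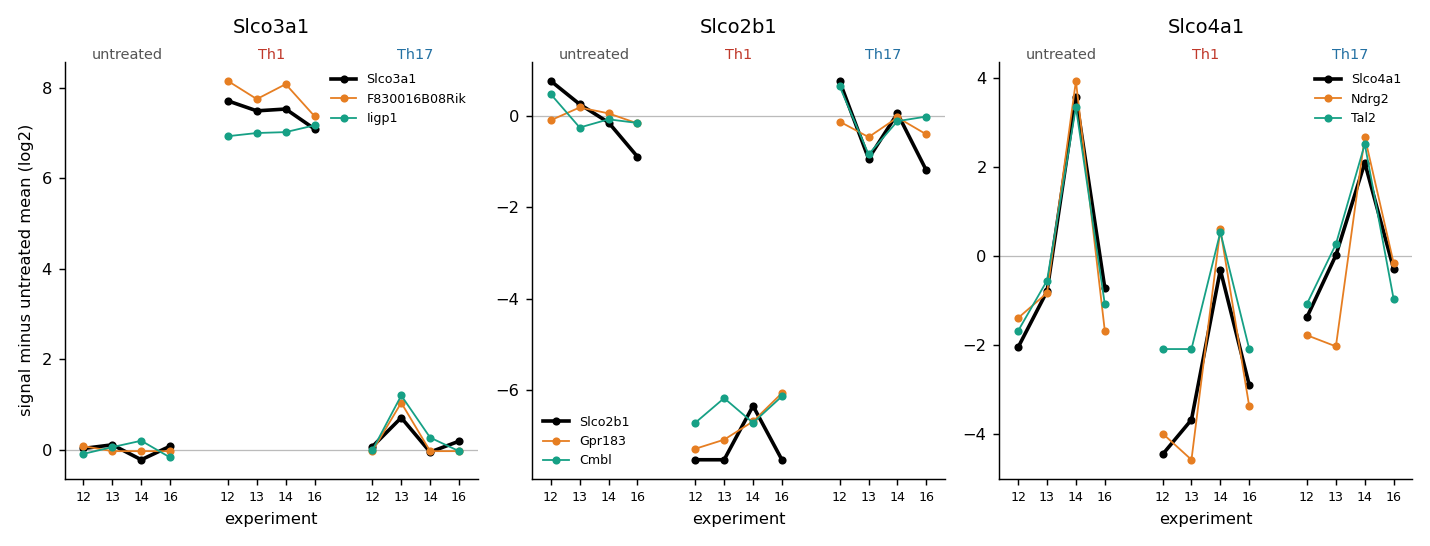
Log2 signal minus the untreated mean (y axis) on the 12 arrays, by group and experiment (x axis), for Slco3a1, Slco2b1 and Slco4a1 (black) and the 2 genes nearest to each (coloured). The Slco3a1 set stands far higher on the Th1 arrays than elsewhere, with a small peak on Th17 13, the Slco2b1 set lies at -7.53 to -6.07 on the Th1 arrays, and the Slco4a1 set peaks in experiment 14 in every group.

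Markers of other cells that carry these transporters were checked beside the results. Of 9 markers of perivascular macrophages 7 were kept, without the defining Cd163 and Lyve1, and 2 rose and 4 fell after Th1 supernatant. Those that rose were Clec10a (2.72 ± 0.51, adjusted p = 0.00118) and Siglec1 (1.01 ± 0.23, adjusted p = 0.00376). Those that fell were Ms4a7 (-1.43 ± 0.22), Cbr2 (-1.14 ± 0.26), Pf4 (-1.09 ± 0.22, adjusted p = 0.00171) and F13a1, at least 4.92-fold lower (adjusted p = 0.00317). The list thus went both ways. The bound of F13a1 was made as for Slco2b1 and has the same limits. Of 8 brain endothelial markers 5 were kept, without Cldn5, Tek and Ocln, and only Vwf was called, with a rise of 3.78 ± 0.54 (adjusted p = 0.000174). The other kept markers were Cdh5 (0.99 ± 0.40), Flt1 (0.94 ± 0.44), Pecam1 (0.60 ± 0.12) and Kdr (-0.33 ± 0.19). Of 7 choroid plexus markers only Folr1 and Otx2 were kept, with Ttr among those not kept, and neither was called. Of the 7 kept astrocyte markers, Fabp7 fell by 2.23 (adjusted p = 0.000361) and no other was called. Among the 10 microglia markers, 2 rose and 3 fell, with Cx3cr1 the largest at -6.32 (adjusted p = 2.61e-05). Trem2 (-2.52) and Tmem119 (-2.28) fell as well, while P2ry12 (1.61) and Aif1 (1.19) rose. The part of these differences in the levels of the Slco genes was not tested.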

How the data were processed

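Microglia RNA was measured on 12 one-colour Agilent arrays. Per the file headers, the authors' image software was Agilent Feature Extraction, version 10.7.3.1, and the deposited scanner files hold background-subtracted spot intensity on a linear scale, not scaled between arrays. The deposited value table holds log2 values. It matched scanner values scaled to the 75th percentile and centred on each probe's median (correlation across probes 0.9997 to 1), with column medians of -0.055 to 0.032, although its scale and centring are not stated. It served as an alternative.

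Control spots and outlier or manually marked spots (103 to 230 per array) were left out, spots of a probe were averaged by the geometric mean, and values were quantile normalised, brought to a 75th percentile of 1500, raised to 15 where lower and log2 transformed. Probes were named through RefSeq accessions (27234 of 39429, or 69.07%, got a symbol), with the GRCm38.p6 table used for names, since the array was designed on mm9. Promoter sequences come from RefSeq on GRCm38.p6.

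Differences between groups were fitted by limma 3.58.1 under R 4.3.3 (lmFit, eBayes, 1 mean per group over all 12 arrays), with Benjamini-Hochberg adjustment over the 24287 kept probes. The procedure was tested on simulated data. The simulation drew independent noise for each probe and array, with no floor and no effect shared by an experiment. It therefore does not cover these features of the arrays. Deviations from group means correlated at 0.241 to 0.633 between arrays of the same experiment and at -0.424 to 0.113 between others, so the experiment numbers of the titles pair the arrays. The members and lists were chosen with earlier results of these data known. Named were every member probe, the 2 largest called rises and falls of a list, Hpgd, Ptgs2, Abcc4 and the 4 nearest profiles of a member. Other named genes were chosen after their values were seen. Some genes that the rule names are not reported here.

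Alternatives were scaling without quantile normalisation, normexp background (offset 50, on the median spot signal, since the files used here hold no mean), no filter, no floor or a floor of 50, the value table, experiment or slide as a block, the arrays of both groups alone, 1 probe per gene, each array left out in turn and, added after the data were seen, experiment 14 left out. The number of arrays limits the precision.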

Additional observations from a re-analysis of the deposited data

Results flagged for a closer look

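In 4 of 18 combinations of member probe and group, 1 array stood far from the other 3, by a gap that exceeded Dixon's critical value for 4 samples as a share of the group's range. Chance gives this in about 1 of 20 groups. Slco2b1 probe A_55_P2030155 was at 5.34 log2 on Th1 12, and its probe A_55_P2079009 was at 5.09 on Th1 14, with the 3 other Th1 arrays at the floor of 3.91 in both. Slco3a1 probe A_66_P135106 was at 5.50 on untreated 14, again with the others at the floor. The same Slco3a1 probe was at 6.40 on Th17 13, with the next array at 4.13. In 3 of the 4 cases the other arrays share 1 value because of the floor, which makes any array above it stand apart.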

How the results depend on the processing

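Of 891 recomputed values, 853 moved by less than the spread between replicates (for counts, by less than 1.5 times) and 38 moved further. No called value changed sign. The small Th17 differences from untreated cells had no stable sign: leaving out 1 array took Slco4a1 from -0.58 to 1.3, the second Slco3a1 probe from -0.32 to 0.68, the dimmer Slco2b1 probe from -0.72 to 0.03 and Slco2a1 from -0.11 to 0.13. Both Slco3a1 and both Slco2b1 probes stayed past the call thresholds against untreated and Th17 cells in all alternatives run, which is a description, since they were chosen on these arrays. With normexp background, which adds an offset to every signal, the Th1 differences from untreated were 6 and 7.04 (Slco3a1), -3.53 and -4.60 (Slco2b1) and 0.15 (Slco2a1), and those from Th17 were 5.89 and 6.89, -3.27 and -4.29, and 0.13. With a floor of 50 they were 8.37 (second Slco3a1 probe), -4.34 and -5.80, and 0, and from Th17 8.18, -4.01 and -5.47, and 0. Without a floor Slco2b1 gave -6.98 and -8.22 (from Th17 -6.66 and -7.90), and with the value table -6.80 and -8.22 (from Th17 -6.47 and -7.89).

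Without 1 array at a time, the Th1 differences from untreated ran from 7.37 to 7.58 and 9.56 to 10.11 (Slco3a1), from -6.07 to -5.43 and -7.53 to -6.98 (Slco2b1), from -3.69 to -1.66 (Slco4a1) and from 0.35 to 0.66 (Slco2a1). The call count of the other carriers (1 in both Th1 comparisons) ran from 1 to 2. It was 2 in both without a floor, 3 and 2 with the replicate block, 2 against Th17 with the arrays of both groups alone and 2 against Th17 without experiment 14. Apart from Slco4a1, Slc22a18 and Slc22a23, the replicate block (pairing by experiment) changed no call of the carriers and pathway genes described. With slide as a block, Slco4a1 gave -3.59 ± 1.01, not called, and within slides -3.05, -5.59 and -2.19. The values of slides 1 and 2 do not compare matched experiments. Slide 1 set Th1 12 against untreated 12 and 13. Slide 2 set Th1 13 and 14 against untreated 14 alone, the highest array of this probe at 16.51 log2. Within experiments the differences were -2.42, -2.90, -3.90 and -2.19. Slide and experiment largely coincide. Ptgdr2 lost its call with 75th percentile scaling (0.95), normexp (0.25) and a floor of 50 (0.06), Ptger2 (0.99) and Abcb1b (-0.98) with normexp. Values near the floor are limited by signal over background.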
